A study of Mus musculus with 30 samples.

Results

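The myosin heavy chains of striated muscle fibers are described here through the genes Myh4, Myh1, Myh2, Myh7, Myh8 and Myh3, 6 of the 56951 gene symbols in the tables and 6 of the 12030 that passed the filter on low values. They were chosen by gene symbol as the adult and developmental chains of limb muscle, with earlier results of these data known, and each stands on 1 row. The gastrocnemius, collected together with the plantaris, came from wild-type male C57BL/6J mice that were housed singly with a running wheel and were young adults when the schedules began. The LD group (n = 14) lived for 64 weeks under a light-dark cycle of 12 h and 12 h that never shifted. The ADV group (n = 16) lived for the same time under chronic jet lag, in which that cycle was moved forward by 8 h every 4 days. All mice were killed in the daytime, over a range of hours, when both groups had the same light period, and the hour of each mouse is not in the labels. Each library came from 1 mouse, and each mouse is called here by its group and its label number.

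Myosin heavy chain is the motor protein of the thick filament, and the chain that a fiber makes sets how fast it shortens and how much ATP it uses. Adult limb fibers of the mouse make a slow chain (Myh7, type I) or a fast chain, with type IIa (Myh2), type IIx (Myh1) and type IIb (Myh4) in order of rising speed, and many fibers make a mixture of neighbors in that series. The embryonic (Myh3) and perinatal (Myh8) chains serve developing and regenerating fibers. Gastrocnemius and plantaris of the mouse are fast muscles with a small slow compartment. In whole muscle a lower transcript level can come from fewer fibers of a type or from less RNA per fiber, and the 2 cannot be told apart.

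Of the 6 genes, 5 lie in 1 cluster on the + strand of chromosome 11 (GRCm39), in the order Myh3, Myh2, Myh1, Myh4 and Myh8. The rows of the tables place Myh3 at chr11:66969126-66993112, Myh2 at chr11:67061853-67088343, Myh1 at chr11:67090878-67115401, Myh4 at chr11:67128855-67151272 and Myh8 at chr11:67167950-67199460. Myh7 lies apart on the - strand, at chr14:55208141-55232083, next to Myh6, the fast chain of the heart. Each gene is spread over 39 to 41 exons in GENCODE vM39, with 5808 to 5829 coding bases.

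The chains of the cluster are near copies of each other, which bears on how well reads of 101 bases can be given to 1 of them. The 4 sequences below are the same stretch of coding exon in 4 members, shown because it holds a typical number of differences between Myh8 and Myh4, the least and the most abundant of the 4. Bases in capitals differ from Myh8.
Myh8, exon 31, chr11:67192303-67192403: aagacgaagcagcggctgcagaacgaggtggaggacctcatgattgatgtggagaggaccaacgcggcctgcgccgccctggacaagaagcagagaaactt
Myh4, exon 30, chr11:67146201-67146301: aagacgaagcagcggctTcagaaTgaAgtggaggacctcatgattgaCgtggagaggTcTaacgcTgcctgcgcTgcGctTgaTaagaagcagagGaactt
Myh1, exon 31, chr11:67110080-67110180: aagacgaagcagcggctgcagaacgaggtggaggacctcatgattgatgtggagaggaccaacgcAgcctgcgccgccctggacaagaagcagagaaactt
Myh2, exon 31, chr11:67083305-67083405: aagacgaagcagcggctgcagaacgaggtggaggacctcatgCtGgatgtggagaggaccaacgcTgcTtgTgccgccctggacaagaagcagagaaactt
In this stretch Myh4 differs from Myh8 at 12 bases, Myh2 at 5 and Myh1 at 1. Over the coding windows of 101 bases in Myh8, the median number of differences was 12 from the closest window of Myh4, 11 from Myh2 and 10 from Myh1.

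Windows of 101 bases that occur unchanged in another chain made up 3.74% of the Myh4 transcript, 7.25% of Myh1, 8.02% of Myh2 and 6.43% of Myh8. The share was 1.13% for Myh3, all of it shared with Myh13, and 11.2% for Myh7, all of it shared with Myh6. These windows ran over GENCODE vM39 transcripts. For Myh1 and Myh2 those are 7944 and 6744 bases long, while the rows on which reads were counted have lengths of 6002 and 6004. Shares over the counted rows were not computed. The longest unbroken match was 268 bases, between Myh1 and Myh2. The authors removed reads of low mapping quality, and how many reads of each chain this took was not tested. Windows with more than 2 differences from every other chain made up 70.5% of Myh7 and 93.9% of Myh3, the lowest and highest shares among the members, so that most of each transcript is distinct.

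The regions just before the transcription starts of Myh4, Myh1, Myh2 and Myh8 also share short runs, and these 4 are shown because the tightest relations between LD mice were found among their transcripts. The longest run that the 250 bases before the RefSeq starts have in common is 14 bases, TTCTAATTATATCC, given below in capitals with 8 bases on either side.
Myh4, chr11:67128472-67128501: agaaatatTTCTAATTATATCCattcacag
Myh1, chr11:67090760-67090789: gggaatatTTCTAATTATATCCaaacatcc
Myh2, chr11:67061720-67061749: aaaaatatTTCTAATTATATCCaaccattc
Myh8, chr11:67167888-67167917: atgaatacTTCTAATTATATCCgaagatgc
The run was found, searching both strands, in 4 of the 32544 distinct promoter sequences of the RefSeq table (0.0123%), which are these 4. It begins 158, 160, 125 and 54 bases before the start in Myh4, Myh1, Myh2 and Myh8. A second run, TCAAATTAT, stands upstream of it in all 4, with 20 to 47 bases between the runs, and was found in 57 promoters (0.175%). Neither run is in the windows of Myh7 or Myh3. The sequences were taken from RefSeq (GRCm38.p6) and placed on GRCm39 by an exact match, and in GENCODE vM39 the stretches of Myh4, Myh1 and Myh8 fall in exons of longer transcripts of the same gene. Runs chosen for being shared describe these sequences, and no binding was measured.

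The libraries held 18875468.5 to 28512674 read pairs on exons. The 6 chains together took 7.53 to 10.6% of them in LD mice (median 8.54%) and 6.10 to 9.17% in ADV mice (median 8.28%), most of it Myh4. Genes of the muscle fiber were high in every library (summed FPKM of Acta1, Ckm, Des, Mb and Tcap between 28301 and 37333), as the labelled tissue would have. LD 23, LD 33 and ADV 24 stood apart in their myosin composition. They were kept. Differences between the groups in shares, in ratios between chains and in spread between mice were also computed without these libraries together. Fold changes were not refitted without all of them together. Correlations between chains were repeated without the farthest libraries of each pair, which were not always these. Levels of partner genes and correlations with other genes are given only with these libraries in.

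Expression was measured as FPKM, the reads of a gene divided by its exon length and by the library total, which allows levels of different genes to be set side by side. In every mouse Myh4 was the most abundant chain, at 3.21 to 23.6 times the level of Myh1 (median 7.38). Myh1 was above Myh2 in all 30 mice, although in ADV 27 the levels were nearly equal (1238 and 1235 FPKM). Myh2 was above Myh7 in all 30 mice, and Myh8 above Myh3 in all 30. Myh7 was above Myh8 in 27 of 30 mice, the exceptions being LD 23, LD 27 and LD 33. The plot of levels by gene and group shows this order, with the widest columns of points at Myh7 and Myh2.

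**Figure D1:**
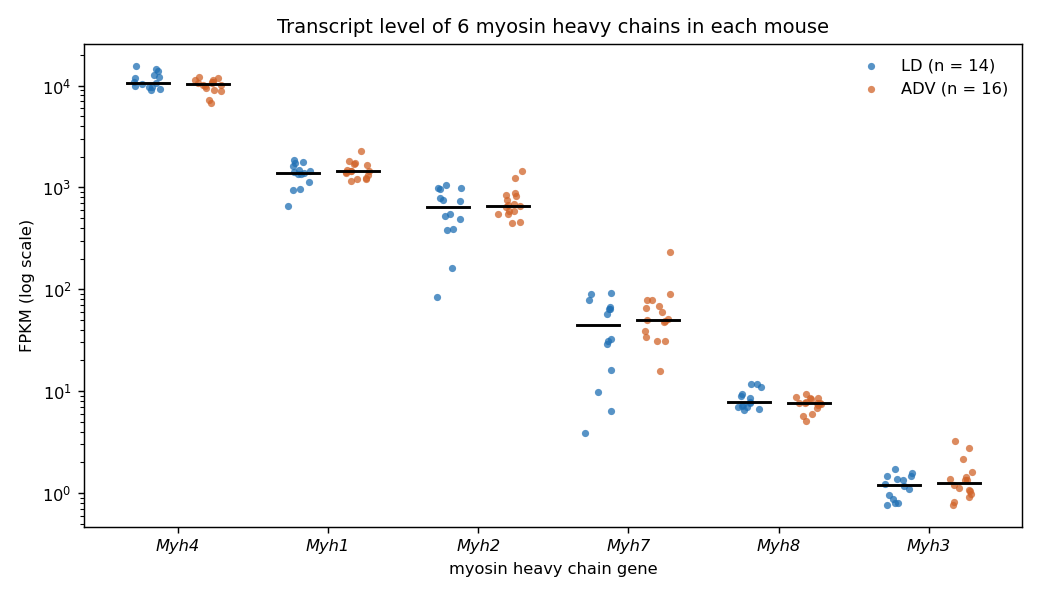
FPKM of each myosin heavy chain on a log axis, with 1 point per mouse, LD in blue (n = 14), ADV in orange (n = 16) and the group median as a black bar. The groups overlap for every gene, and the lowest points of Myh2 and Myh7 are LD mice, at 83.4 and 3.88 FPKM.

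No member was called between the groups by edgeR, with a call needing a false discovery rate (FDR) under 0.05 and a fold change over 1.3, while 252 of 12030 genes (2.09%) were, 1.45% higher and 0.648% lower in ADV mice. Myh4 and Myh8 were lower in ADV mice on average and Myh1, Myh2, Myh7 and Myh3 higher, all by less than the spread between mice could resolve. Only Myh4 had an unadjusted p under 0.05, as did 30.1% of all genes tested.

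Myh4, the type IIb chain, stood at 9133 to 15582 FPKM in LD mice (median 10687) and at 6813 to 11998 FPKM in ADV mice (median 10454). The ranges overlapped, with 5 LD mice above every ADV mouse and 4 ADV mice below every LD mouse. The group means were 11408 ± 2062 FPKM (SD, n = 14) and 10089 ± 1501 FPKM (SD, n = 16). The log2 fold change was -0.19 (SE 0.094, edgeR unadjusted p = 0.0473, FDR 0.160), and the two-sided exact Wilcoxon rank-sum test on FPKM gave p = 0.208, 1 of 6 such tests with unadjusted p-values.

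Myh1, the type IIx chain, ranged from 660.2 to 1854 FPKM in LD mice (median 1399.7) and from 1160 to 2267 FPKM in ADV mice (median 1437). LD 23, LD 28, LD 33 and LD 30 were below the whole ADV group, and ADV 24 was the highest of all. The log2 fold change was 0.12 (SE 0.114, edgeR FDR 0.505), and the rank-sum test gave p = 0.448.

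Myh2, the type IIa chain, ranged from 83.4 to 1046 FPKM in LD mice (median 638.8) and from 443.2 to 1445 FPKM in ADV mice (median 661.2). LD 23 and LD 33, at 83.4 and 161.4 FPKM, were far under the rest, and 2 further LD mice were below the whole ADV group. Its log2 fold change was 0.21 (SE 0.240, edgeR FDR 0.590), and the rank-sum test gave p = 0.473.

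Myh7, the slow chain, ranged from 3.88 to 91.7 FPKM in LD mice (median 44.7) and from 15.7 to 233.3 FPKM in ADV mice (median 50.4). LD 23, LD 27 and LD 33 were below every ADV mouse and ADV 24 was above every LD mouse. LD 27 had little Myh7 (6.36 FPKM) beside an ordinary level of Myh2 (746.6 FPKM). The log2 fold change of 0.46 was the largest of the 6 and also the least precise (SE 0.369, edgeR FDR 0.416), with a rank-sum p of 0.355.

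Myh8, the perinatal chain, ranged from 6.52 to 11.8 FPKM in LD mice (median 7.73) and from 5.13 to 9.26 FPKM in ADV mice (median 7.63). The 4 highest mice were LD and the 3 lowest ADV. Its log2 fold change equaled that of Myh4 to 2 decimals, at -0.19 (SE 0.099, edgeR FDR 0.182), with a rank-sum p of 0.334. Myh3, the embryonic chain, ranged from 0.764 to 1.71 FPKM in LD mice (median 1.20) and from 0.764 to 3.23 FPKM in ADV mice (median 1.26). The 3 highest Myh3 levels were in ADV mice (27, 24 and 33), and the difference did not pass (log2 fold change 0.25, SE 0.174, edgeR FDR 0.330, and p = 0.532 by permutation of the ranks, since values tied). The lowest library held 99.5 read pairs of Myh3 and 752.5 of Myh8.

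The share of each chain in the summed FPKM of the 6 does not depend on how libraries are scaled to each other. Myh4 made up 76.9 to 95.4% of the sum in LD mice (median 82.6%) and 64.8 to 87.9% in ADV mice (median 83.1%). The 5 highest shares were in LD mice and the 2 lowest in ADV mice, and the medians lay within 1 percentage point while the means were further apart. The means were 84.2 ± 5.91% (SD, n = 14) and 81.1 ± 5.64% (SD, n = 16), and ADV minus LD was -3.18 percentage points (95% interval -7.52 to 1.16, two-sided permutation test, p = 0.145). Without LD 23, LD 33 and ADV 24 the difference was -0.47 percentage points.

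Myh1 held 4.04 to 14.5% in LD mice (median 11.6%) and 8.51 to 20.2% in ADV mice (median 11.2%). The mean share was 1.90 percentage points higher in ADV mice (95% interval -0.51 to 4.31, permutation p = 0.118), and 6 of 16 ADV mice were above the LD median. Myh2 held 0.510 to 8.44% in LD mice (median 5.00%) and 3.25 to 12.9% in ADV mice (median 5.52%), a difference in means of 1.11 points (95% interval -0.83 to 3.04, permutation p = 0.250). Myh7 held 0.0237 to 0.710% in LD mice (median 0.356%) and 0.112 to 2.08% in ADV mice (median 0.450%), a difference of 0.173 points (95% interval -0.096 to 0.443, permutation p = 0.223). Without the 3 libraries the differences were 0.496 points for Myh1, -0.040 for Myh2 and 0.018 for Myh7. Myh8 and Myh3 held at most 0.0764% and 0.0246%, and their shares did not pass either (permutation p = 0.423 and 0.124). The shares of the 6 chains are tied to each other, since they sum to 100 in each mouse.

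**Figure D2:**
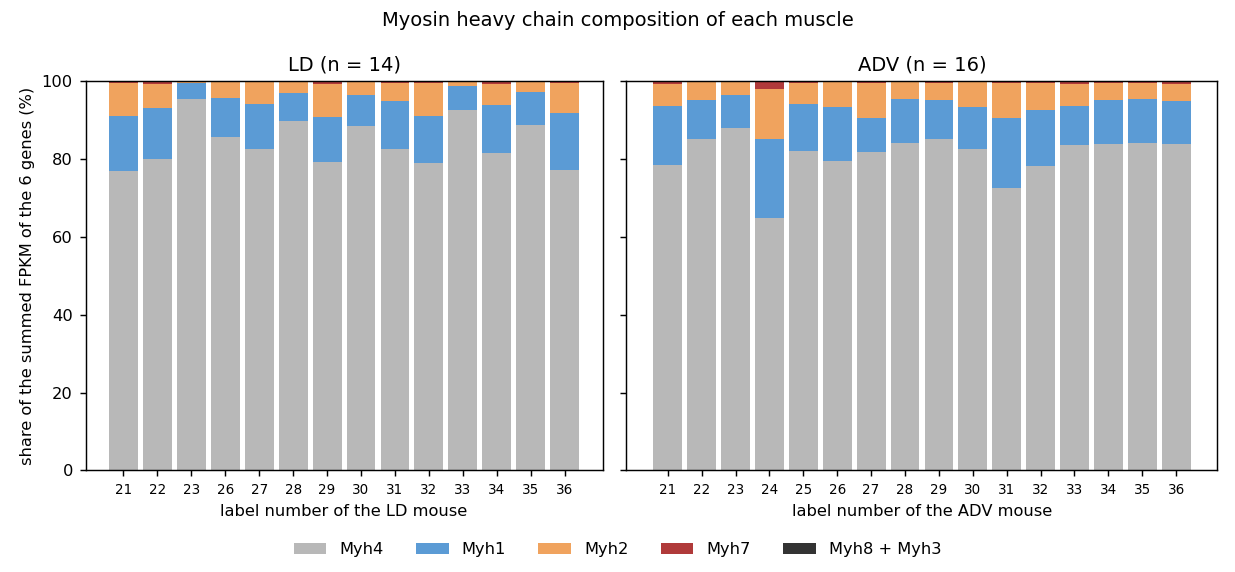
Share of each myosin heavy chain in the summed FPKM of the 6 genes (%), as 1 stacked bar per mouse with the label number under it, LD on the left (n = 14) and ADV on the right (n = 16). Myh4 fills most of every bar, from 95.4% in LD 23 down to 64.8% in ADV 24, where Myh2 and Myh7 reach 12.9% and 2.08%.

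Ratios between adult chains on the log2 scale, which weigh the scarce chains as much as the abundant ones, pointed the same way without passing. The log2 ratio of Myh7 to Myh4 was -8.46 ± 1.68 (SD, n = 14) in LD and -7.55 ± 1.001 (SD, n = 16) in ADV mice, a difference of 0.91 (95% interval -0.16 to 1.98, permutation p = 0.0773). For Myh2 to Myh4 the difference was 0.59 (95% interval -0.20 to 1.38, p = 0.114), and for Myh1 to Myh4 it was 0.34 (95% interval -0.08 to 0.75, p = 0.0989), by the same permutation test. Without LD 23, LD 33 and ADV 24 the 3 differences were 0.27, 0.06 and 0.07. Leaving out LD 22, LD 29, LD 34 or ADV 22 alone took the Myh7 ratio to between 1.03 and 1.05 with p between 0.0403 and 0.0486.

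The chains differed more in how much they varied between mice than in their group means. On the log2 FPKM scale the SD between LD mice was 0.25 for Myh4, 0.41 for Myh1, 1.06 for Myh2 and 1.49 for Myh7, and between ADV mice it was 0.23, 0.26, 0.46 and 0.86. Spread thus rose in both groups from the type IIb to the slow chain, and it was smaller in ADV mice for these 4 and for Myh8 (0.30 and 0.23). Myh3 went the other way (0.39 and 0.59). As a coefficient of variation of FPKM, the spread of Myh7 was larger in ADV mice (77.5%) than in LD mice (68.0%), and the other genes kept their direction. The mean absolute deviation from the group median was lower in ADV mice by a log2 ratio of -1.16 for Myh2 (two-sided permutation test, p = 0.0474) and of -0.98 for Myh7 (p = 0.0590), and the 4 other genes had p between 0.265 and 0.570. These 6 p-values are unadjusted, and the one of Myh2 was above 0.05 in 22 of the 30 repeats that left out 1 library, most of all without LD 23 (log2 ratio -0.76, permutation p = 0.187).

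Myosins outside these 6 were measured as well, and 6 of 8 passed the filter. Myh10, a nonmuscle myosin II chain, was called, rising from 5.49 ± 1.95 FPKM (SD, n = 14) in LD mice to 9.86 ± 3.57 FPKM (SD, n = 16) in ADV mice (log2 fold change 0.83, SE 0.186, edgeR FDR 0.0066). The median log2 fold change of the 6 was 0.17, beside 0.00 for all 12030 genes. Of those not called, the most abundant were Myh14 at 12.0 and 13.3 FPKM, Myh9 at 10.9 and 12.7 FPKM (both nonmuscle chains) and Myh11, the smooth muscle chain, at 6.27 and 6.55 FPKM in LD and ADV mice.

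Slow fibers pair Myh7 with slow light chains, troponins and a slow calcium pump, and 11 of 11 such partners were tested. All 11 had a positive log2 fold change, with a median of 0.44, and 1 was called. That was Ankrd2, a stretch-responsive ankyrin repeat protein of slow fibers, at 120.6 ± 50.4 FPKM (SD, n = 14) in LD and 207.4 ± 66.9 FPKM (SD, n = 16) in ADV mice (log2 fold change 0.77, SE 0.230, edgeR FDR 0.0310). The most abundant of the others were Myl3, the slow essential light chain (log2 fold change 0.50, edgeR FDR 0.224), Myl2, the slow regulatory light chain (0.29, FDR 0.552), and Tnnt1, slow troponin T (0.45, FDR 0.380). The summed FPKM of the list ran from 86.8 to 1374 in LD mice and from 445.8 to 2662 in ADV mice, and 10 of these genes moved with Myh7 from mouse to mouse (r over 0.5), so that they are not 11 separate observations.

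Of 12 partners of the fast chains, 12 were tested and 0 called by edgeR, 1 with an unadjusted p under 0.05 (Casq1, p = 0.041), and the median log2 fold change was -0.04. Tnnt3, fast troponin T and the most abundant, was at 19628 and 19605 FPKM in LD and ADV mice (log2 fold change -0.02, edgeR FDR 0.887). Tnnc2, fast troponin C, and Tnni2, fast troponin I, had log2 fold changes of 0.04 and 0.05 (edgeR FDR 0.652 and 0.608). The plot of fold changes sets these lists under the members.

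**Figure D3:**
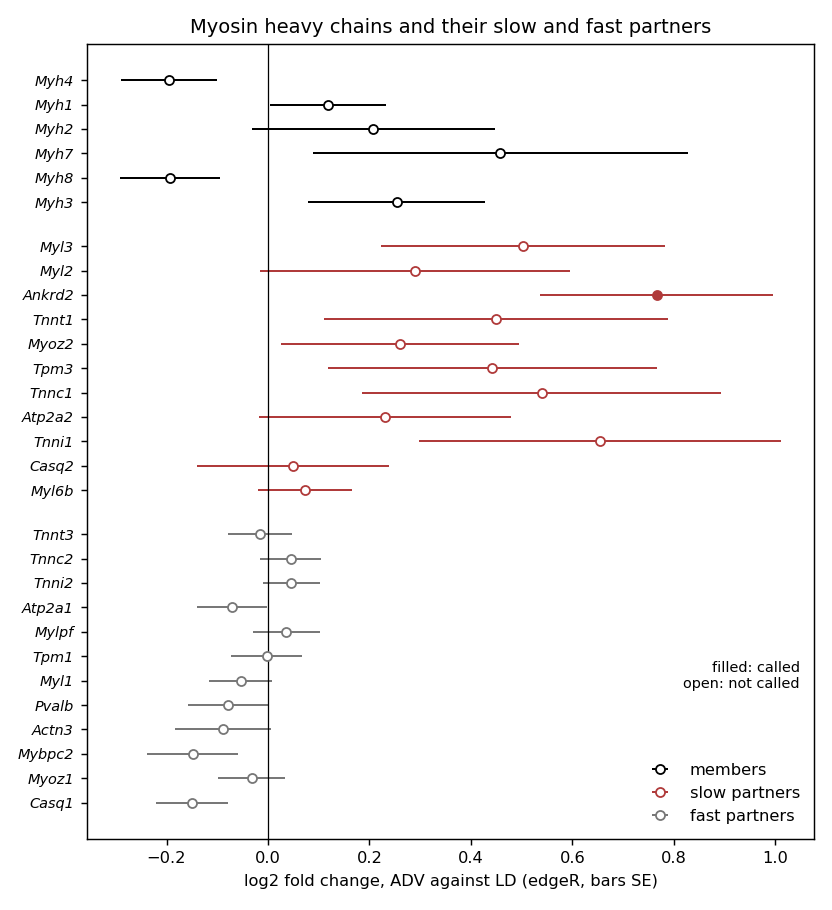
Log2 fold change of ADV against LD from edgeR for the 6 myosin heavy chains (black), 11 slow partners (red) and 12 fast partners (gray), with bars of 1 SE and filled points for called genes. Among the 29 genes only Ankrd2 is called, at 0.77, and the widest bar is that of Myh7 (0.37), while the bars of the fast partners are at most 0.094.

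Genes that build and maintain the thick filament, chaperones, M-band proteins and myosin-binding proteins among them, held 1 called gene of 14 tested (median log2 fold change -0.03). It was Hsp90aa1, an inducible HSP90 chaperone, at 14.1 ± 3.40 FPKM in LD and 19.8 ± 6.63 FPKM in ADV mice (log2 fold change 0.47, SE 0.140, edgeR FDR 0.0291). Mybpc1, the slow myosin-binding protein C, stood at 402.4 and 483.8 FPKM (log2 fold change 0.25, edgeR FDR 0.194), Myom1, an M-band protein, at 394.7 and 389.5 FPKM (-0.04, FDR 0.645), and Myom2 at 343.1 and 340.04 FPKM (-0.03, FDR 0.754). Trim55, a muscle RING-finger protein, had an FDR under 0.05 with a smaller change (log2 fold change -0.12, edgeR FDR 0.040).

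Regulators tied to fiber type, such as MEF2, NFAT and TEAD factors, held 2 called genes of 22 tested, beside 2.09% of all genes. Vgll2, a TEAD cofactor, rose from 25.1 ± 10.1 FPKM (SD, n = 14) to 51.1 ± 18.4 FPKM (SD, n = 16) (log2 fold change 1.01, SE 0.183, edgeR FDR 0.0015). Rcan1, a calcineurin regulator that is also a target of calcineurin and NFAT, rose from 47.9 ± 22.4 to 117.1 ± 59.8 FPKM (log2 fold change 1.27, SE 0.247, edgeR FDR 0.0025). Another 3 had an FDR under 0.05 with a smaller change, which makes 5 of 22 under that FDR beside 10.8% of all genes. They were Sox6, a repressor of slow genes (log2 fold change -0.26, edgeR FDR 0.0078), Nfatc1 (0.22, FDR 0.044) and Tead4 (0.32, FDR 0.048). The most abundant that were not called were Mef2c at 115.7 and 109.7 FPKM, Tbx15 at 68.1 and 69.1 FPKM and Mef2d at 55.5 and 59.7 FPKM. Of 8 tested genes of embryonic and denervated muscle, 0 were called by edgeR (median log2 fold change 0.05), 1 with an unadjusted p under 0.05, Myl4, the embryonic light chain (0.36, p = 0.0097, FDR 0.068). Actc1, cardiac actin, Musk, the receptor of the neuromuscular junction, and Gadd45a, which rises in denervated muscle, were the most abundant, with FDR of 0.849, 0.514 and 0.374.

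The call of Ankrd2 ended without the filter on low genes (edgeR FDR 0.0534), with a GC content trend removed (0.0785), and without LD 28 or ADV 24 (0.0513 and 0.0509). That of Hsp90aa1 ended without the filter (edgeR FDR 0.0503) and without LD 28 or ADV 25 (0.0508 and 0.0528). In the 28 libraries with shared label numbers both calls ended without a block (edgeR FDR 0.0851 for Ankrd2 and 0.0738 for Hsp90aa1), and with the label number as a block Ankrd2 was called (0.0408) and Hsp90aa1 was not (0.146). With a clock gene score of each library as a covariate (the mean log2 CPM of Bmal1, Npas2, Clock and Nfil3 minus that of Dbp, Nr1d1, Nr1d2, Tef, Ciart and Per3), edgeR called 0 genes in all (1511 with an unadjusted p under 0.05), and Myh10, Ankrd2, Hsp90aa1, Vgll2 and Rcan1 had FDR of 0.318, 0.264, 0.560, 0.264 and 0.184. Their log2 fold changes in that fit were 0.65 (SE 0.278), 0.97 (SE 0.339), 0.26 (SE 0.189), 0.70 (SE 0.245) and 1.26 (SE 0.377), larger than in the main comparison for Ankrd2, nearly equal for Rcan1 and smaller for the other 3, with a larger SE for all 5. The log2 fold changes of the members in that fit were -0.17 for Myh4, 0.03 for Myh1, 0.17 for Myh2, 0.38 for Myh7, -0.18 for Myh8 and 0.26 for Myh3, and the lowest FDR was 0.617.

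Levels of markers of other cells were set beside these results. The summed FPKM of 5 adipocyte genes ran from 29.3 to 166.5 in LD and from 19.3 to 292.5 in ADV mice, and that of 5 Schwann cell genes from 24.3 to 46.3 and from 25.99 to 80.7. For 4 endothelial genes it ran from 45.7 to 64.7 and from 51.9 to 68.3, for 4 fibroblast genes from 249.3 to 328.4 and from 214.6 to 334.3, and for 4 leukocyte genes from 64.6 to 255.3 and from 62.2 to 121.4. For 3 erythroid genes the range was 54.4 to 110.7 and 68.3 to 116.2, and for 3 smooth muscle genes 27.8 to 54.0 and 31.9 to 66.1. None of the 28 was called, Pecam1, Pdgfra and Tagln had an FDR under 0.05 with a smaller change (edgeR log2 fold change 0.16, -0.24 and 0.29), 3 of 28 beside 10.8% of all genes, and none was at 0 in all libraries. The log2 fold change was positive for 5 of 5 Schwann cell genes (median 0.45, 4 with an unadjusted edgeR p under 0.05) and for 5 of 5 adipocyte genes (median 0.52, 2 with such a p), beside the median of 0.44 of the slow partners. Such a p was found for 30.1% of all genes, and no Schwann cell or adipocyte gene had an FDR under 0.05. Cfd and Retn, 2 of these adipocyte genes, were near 0 (0.04 and 0.01). The median of the adipocyte sum was 110.5 FPKM in LD and 90.0 FPKM in ADV mice. Positive log2 fold changes were found for 3 of 4 endothelial, 0 of 4 fibroblast, 1 of 4 leukocyte, 2 of 3 erythroid and 3 of 3 smooth muscle genes. Over the 30 libraries, centered within groups, the endothelial sum had r = 0.59 with Myh3 and 0.56 with Myh2, and the leukocyte sum r = -0.52 with Myh2. The part of these cells in the levels of the members was not tested.

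Between LD mice, the chains fell into 2 sets that moved against each other, and between ADV mice only part of this was seen. Myh4 and Myh8 rose together, and Myh1, Myh2, Myh7 and Myh3 rose together and fell as the first set rose. This was tested as the correlation of log2 CPM (counts scaled to the library total by TMM) for the 15 pairs in each group, 30 in all, with two-sided permutation p-values adjusted over the 30 by Benjamini-Hochberg. In LD mice 15 of 15 pairs had an adjusted p under 0.05, 7 positive and 8 negative. In ADV mice 7 of 15 did, 4 positive and 3 negative, all with the sign of the LD group. By Spearman's rho 11 LD pairs and 1 ADV pair had such a p, and without the 2 farthest libraries 6 and 1. Among the ADV pairs that did not pass, Myh1 with Myh3 had r = 0.11 and Myh8 with Myh3 had r = -0.12. Whether a correlation differed between the groups was not tested.

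The tightest pair was the most and nearly the least abundant, Myh4 and Myh8. In LD mice Pearson's r was 0.95 (adjusted permutation p = 0.00015, whose unadjusted value of 1e-05 is the smallest that the permutations can give) and Spearman's rho 0.87 (adjusted p = 0.0019). In ADV mice r was 0.88 (adjusted permutation p = 0.0003) and rho 0.67 (adjusted p = 0.0222). Without the 2 libraries farthest from the median of Myh4, r was 0.92 in LD and 0.69 in ADV mice, with adjusted permutation p of 0.0024 and 0.0228. Per length, Myh8 stood at 0.0673 to 0.0862% of Myh4 in LD mice (mean 0.0740 ± 0.0058%, SD, n = 14) and at 0.0637 to 0.0858% in ADV mice (mean 0.0747 ± 0.0062%, SD, n = 16). In LD mice the coefficient of variation was 7.90% for this ratio, 18.1% for Myh4 and 22.2% for Myh8. Of the 6049 windows of Myh8, 84 (1.39%) are unchanged in Myh4 and 640 (10.6%) have at most 2 differences from it. How much of the Myh8 count came from Myh4 reads was not tested.

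Myh4 moved against Myh2 in LD mice (r = -0.87, adjusted permutation p = 0.00015, rho = -0.88, adjusted p = 0.0019), and still did without LD 23 and LD 33 (r = -0.83, adjusted permutation p = 0.0121). In ADV mice the same pair had r = -0.47 (adjusted permutation p = 0.0779, rho = -0.38, adjusted p = 0.193) and r = -0.05 without ADV 31 and ADV 24. Myh4 moved against Myh7 with r = -0.68 in LD and -0.55 in ADV mice (adjusted permutation p = 0.0192 and 0.0443, rho = -0.65 and -0.42, adjusted p = 0.0421 and 0.143), and without the 2 farthest libraries with r = -0.42 and -0.47, which no longer passed (adjusted permutation p = 0.295 and 0.196). Myh4 moved against Myh1 with r = -0.70 and -0.61 (adjusted permutation p = 0.0114 and 0.0205, rho = -0.54 in both), and with r = -0.44 and -0.32 without those libraries (adjusted permutation p = 0.270 and 0.381). The last 2 relations thus did not pass without the libraries left out, although in ADV mice r of Myh4 with Myh7 changed little.

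In the other set, Myh1 and Myh2 rose together in LD mice (r = 0.88, adjusted permutation p = 0.0009, rho = 0.76, adjusted p = 0.0108) and less tightly in ADV mice (r = 0.55, adjusted permutation p = 0.0397, rho = 0.54, adjusted p = 0.0576). Without the 2 farthest libraries r was 0.76 and 0.22. Myh2 and Myh3 had r = 0.75 in LD and 0.70 in ADV mice (adjusted permutation p = 0.0037 and 0.0081, rho = 0.77 and 0.52), and r = 0.59 and 0.32 without the farthest 2. Myh7 and Myh3 had r = 0.82 and 0.63 (adjusted permutation p = 0.0018 and 0.0193, rho = 0.85 and 0.56), and r = 0.72 and 0.37 without the farthest 2. After leaving out 2 libraries for each pair, 6 LD pairs and 1 ADV pair, Myh4 with Myh8, still had an adjusted p under 0.05, and 29 of the 30 pairs kept their sign. The libraries left out in ADV mice were ADV 24 and 1 further mouse for each pair. Of the 6 other ADV pairs that had passed, Myh4 with Myh7 and Myh1 with Myh8 kept r close to its value (-0.55 and -0.47, -0.56 and -0.49), and the 4 others then had r of -0.32, 0.22, 0.32 and 0.37.

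**Figure D4:**
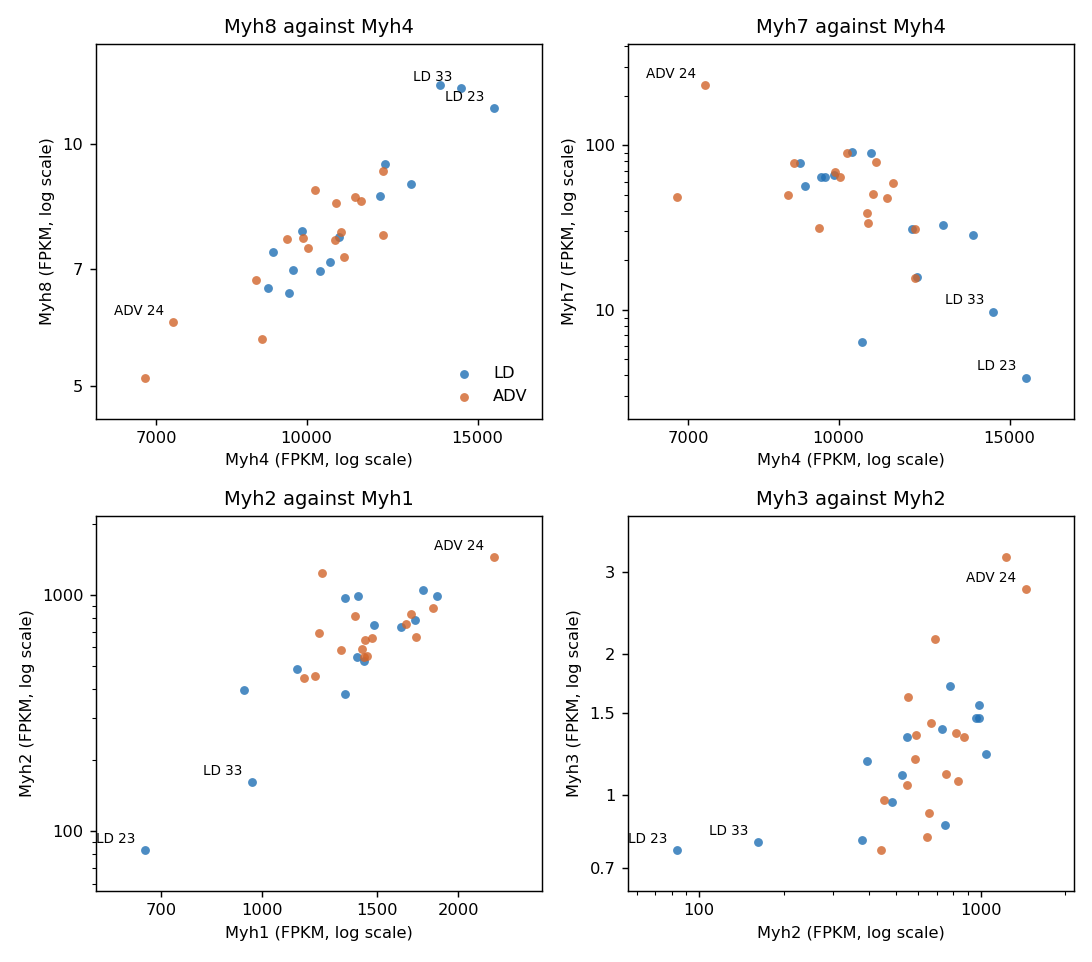
Levels of 4 pairs of chains in each mouse (FPKM, both axes log), LD in blue (n = 14) and ADV in orange (n = 16), with LD 23, LD 33 and ADV 24 named. Myh8 rises with Myh4 over both groups on 1 line, Myh7 falls as Myh4 rises, Myh2 rises with Myh1 and Myh3 with Myh2, with the named mice at or near the ends.

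**Figure D5:**
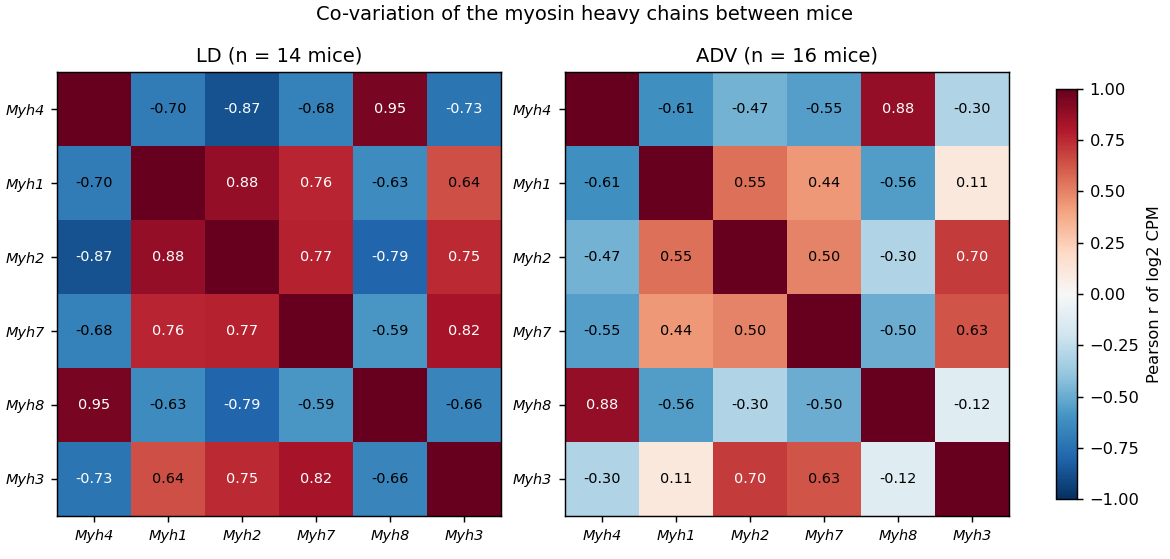
Pearson's r of log2 CPM between the 6 chains across mice, for LD on the left (n = 14) and ADV on the right (n = 16), red for positive and blue for negative. The block of Myh1, Myh2, Myh7 and Myh3 is red and its meeting with Myh4 and Myh8 blue, and in ADV mice the values are nearer 0, with Myh4 and Myh8 at 0.88 the strongest.

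Genes whose levels followed those of each member most closely were found over the 30 libraries, centered within groups, among 12029 other genes. They are named as a description, with no test. Closest to Myh4 were Pygm, muscle glycogen phosphorylase (r = 0.92), Mybpc2, the fast myosin-binding protein C (0.91), Myh8 (0.91), Tmod1, which caps thin filaments (0.86), and Man2a2 (0.84). Farthest were Decr1 and Hadh, enzymes of fatty acid oxidation (-0.87 for each), and Adk, adenosine kinase (-0.86). Values of r over 0.5 with Myh4 were found for 5.43% of all genes.

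Closest to Myh7 were Tnnc1, Tnni1 and Tnnt1, the slow troponin subunits (r = 0.99, 0.99 and 0.98), Tpm3, slow tropomyosin (0.98), and Atp2a2, the slow calcium pump (0.95). In ADV mice alone these were 0.96, 0.96, 0.98, 0.96 and 0.97, and in LD mice alone 0.99, 0.99, 0.98, 0.99 and 0.95. Of the 11 slow partners, 10 had r over 0.5 with Myh7, beside 4.81% of all genes, and Myl6b had 0.09. Among other myosins Myh7b, another slow-type chain, had r = 0.91 with Myh7, and Myh10 had 0.72. Farthest from Myh7 were Prkab2, a subunit of AMP-activated kinase (-0.74), Ace (-0.74) and Dhdh (-0.73).

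Closest to Myh2 were Myom3, an M-band protein (r = 0.94), Arpp21 (0.93), Gbe1, the glycogen branching enzyme (0.93), Smtnl1 (0.93) and Nnt, the mitochondrial transhydrogenase (0.92). C57BL/6J mice are known to carry a deletion in Nnt, and its level here was 15.3 FPKM on average. Farthest were Spon1 (-0.83), Rexo4 (-0.79) and Cib2 (-0.79). Closest to Myh1 were 2310016D03Rik (0.84), Clip4 (0.82), Fhl1 (0.81), Padi2 (0.81) and Gbe1 (0.80), and farthest Plcd4 (-0.82), H6pd (-0.79) and Spon1 (-0.76). Gbe1 and Spon1 are thus on both lists. The 5 genes closest to Myh1 had r of 0.86, 0.90, 0.88, 0.90 and 0.90 with it in LD mice alone. In ADV mice alone these were 0.80, 0.64, 0.64, 0.62 and 0.56.

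Closest to Myh8 were Myh4 (r = 0.91), Mybpc2 (0.85), Pygm (0.84), Myom2, an M-band protein of fast fibers (0.82), and Vcp (0.80), 3 of which are also closest to Myh4 or are Myh4. In LD mice alone these r were 0.95, 0.96, 0.92, 0.90 and 0.95, and in ADV mice alone 0.88, 0.71, 0.75, 0.73 and 0.63. Farthest were Rtn4ip1 (-0.86), Pitpnc1 (-0.84) and Adk (-0.84). Closest to Myh3 were Gusb, a lysosomal enzyme (0.77), P3h2, a collagen prolyl hydroxylase (0.77), Ablim1 (0.74), Atp2a2 (0.74) and Nt5c2 (0.73), and farthest Mstn, myostatin (-0.75), Sub1 (-0.74) and H4c9 (-0.74). None of the 5 closest to Myh3 is a gene of embryonic muscle, and of the 8 tested genes of embryonic and denervated muscle 3 had r over 0.5 with it, beside 2.81% of all genes. They were Ncam1 (0.64), Chrna1 (0.56) and Chrnd (0.55), which had r of 0.38, 0.57 and 0.70 with Myh2. Of the slow partners, 9 of 11 had r over 0.5 with Myh3.

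The fast partners followed the type IIb chain, 11 of 12 having r over 0.5 with Myh4 and 8 of 12 with Myh8, while 11 of 12 had r under -0.5 with Myh2, 9 with Myh1, 9 with Myh3 and 5 with Myh7. The slow partners had r over 0.5 in 10 of 11 with Myh1 and in 10 of 11 with Myh2, as with Myh7, and under -0.5 in 10 of 11 with Myh4. Within the slow list Myl2, Myl3, Casq2 and Myoz2 were closer to Myh2 (0.90, 0.88, 0.85 and 0.92) than to Myh7 (0.85, 0.81, 0.70 and 0.80), and the troponins were closer to Myh7. Of the 22 tested regulators, 2 had r over 0.5 with Myh7, namely Vgll2 (0.71) and Esrrg, an estrogen-related receptor of oxidative fibers (0.63), beside 4.81% of all genes. The same 2 had r over 0.5 with Myh1 (0.60 and 0.54, beside 5.29% of all genes) and with Myh2 (0.59 and 0.66, beside 7.11%). With Myh4, 2 had r over 0.5, Maf (0.53) and Hdac4 (0.52), beside 5.43% of all genes, and 2 had r under -0.5, Vgll2 (-0.55) and Esrrg (-0.51), beside 7.42%. All these values share depth and scaling within a library, and genes are not independent replicates.

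Transcripts that overlap the members or lie between them were looked up, since reads of overlapping genes can be told apart only by strand, and whether the counting used strand is not given in the sources used here. Myhas, on the - strand at chr11:67102082-67128399 across the 3′ part of Myh1, had 10.6 ± 1.94 FPKM in LD and 10.2 ± 1.94 FPKM in ADV mice. Its r was -0.16 with Myh1, 0.43 with Myh4 and -0.39 with Myh2. 9430073C21Rik, on the - strand at chr11:67086506-67090060 over the end of Myh2, had 0.618 ± 0.282 and 0.773 ± 0.358 FPKM. Its r was 0.62 with Myh2, 0.55 with Myh1 and -0.67 with Myh4. 2310065F04Rik, on the - strand at chr11:67003287-67010906 between Myh3 and Myh2, had 32.7 ± 6.06 and 30.6 ± 6.23 FPKM. On chromosome 14, Mhrt, Gm31251 and Gm29015 overlap Myh7 on the + strand and had on average 2.33, 2.85 and 0.850 read pairs per library, under the filter. The lowest levels of the overlapped members were 83.4 FPKM for Myh2, 660.2 FPKM for Myh1 and 3.88 FPKM for Myh7.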

How the data were processed

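Poly(A)-enriched stranded RNA of gastrocnemius from 14 LD and 16 ADV mice was sequenced in paired reads of 101 bases. After trimming (Trimmomatic) and alignment to GRCm39 (STAR), the authors discarded alignments of poor mapping quality and used Homer to count what remained on exons of UCSC known canonical transcripts. The submitters' processing notes name STAR 2.7.10a and HOMER 4.11. The deposited estimated counts give each mate 0.5 read, so 14.8% of them were not whole, and they were rounded here. The deposited FPKM values divide the same counts by exon length and library total. The strand setting of the counting is not given in the sources used here. Read pairs on exons numbered 18875468.5 to 28512674 per library.

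The filter on low values kept 12030 genes, those whose mean exceeded both 20 reads and 0.5 FPKM. Groups came from the labels, and the main comparison was the quasi-likelihood test of edgeR 4.0.16 in R 4.3.3 after TMM scaling, with p-values adjusted by Benjamini-Hochberg across the whole tested table. Calls required FDR below 0.05 and more than 1.3-fold change. The SE given with an edgeR log2 fold change is its absolute value divided by the square root of the F statistic of the test. On simulated data with 200 of 12030 genes changed by a factor of 2, edgeR called 200, of which 198 were changed ones. The simulated counts were drawn independently for each gene, without variation shared between genes, and smaller changes were not simulated. FPKM was compared with the two-sided exact Wilcoxon rank-sum test, and shares, log2 ratios, spread and correlations with 100000 permutations (scipy 1.17.1), with unadjusted p-values except for the 30 correlations. Intervals of 95% for differences are Welch intervals, which assume near-normal values. Correlations across all 30 libraries used log2 CPM with a prior count of 0.5, centered within groups. Alternatives were DESeq2 1.42.0, limma 3.58.1 on log2(FPKM + 0.1) and log2(FPKM + 1), other scalings and filters, a clock gene score, a GC content correction, the label number as a block, and leaving out each library.

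The members, lists and tests were chosen with earlier results of these data known. Beside the members, the text names every called gene of a list and up to 3 others by abundance, the 5 genes closest to and the 3 farthest from each member, and genes that overlap a member. Casq1, Myl4, Pecam1, Pdgfra, Tagln, Cfd, Retn, Trim55, Sox6, Nfatc1, Tead4, Myh7b, Myl6b, Casq2, Myoz2, Esrrg, Maf, Hdac4, Ncam1, Chrna1, Chrnd and the light chains, troponins and regulators compared by r were named after their values were seen. Transcript and promoter sequences came from GENCODE vM39 and RefSeq, and all 6 members matched a promoter.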

Additional observations from a re-analysis of the deposited data

How the results depend on the processing

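No member was called under any alternative, and each kept the sign of its log2 fold change in all of them, including the fits without 1 library (Myh4 -0.22 to -0.16, Myh1 0.06 to 0.16, Myh2 0.11 to 0.28, Myh7 0.19 to 0.57, Myh8 -0.22 to -0.14, Myh3 0.14 to 0.30). The number of genes called in all was 252, and 190 to 302 without 1 library. It was 124 with limma on log2(FPKM + 1), 1301 without the fold limit and 0 with the clock gene score, which may overlap with the group. With the label number as a replicate block it was 137, and 151 in the same 28 libraries without the block, an alternative chosen after seeing the data. Deviations of same-numbered samples had r of -0.26 to 0.43, over 0.1 in 6 of 14. Of the LD libraries, 3 of 14 were closest to their own number. Whether the label numbers pair the samples was not tested. Under the block the log2 fold change of Myh4, edgeR, was -0.16 (FDR 0.243). The share of Myh4 in summed FPKM then differed by -2.09 points (sign-flip permutation, p = 0.189). The replicate block changed no call of the members. Also chosen after seeing the data was the removal of LD 23, LD 33 and ADV 24 together, which turned the share difference of Myh2 to -0.040 points and that of Myh8 to 2.8e-05 points and took the spread of Myh2 to a log2 ratio of -0.62 (p = 0.171). Without 1 library, the log2 ratio of Myh7 to Myh4 differed by 0.64 to 1.05 (p from 0.0403 to 0.162), the spread of Myh2 by -1.41 to -0.76 (p from 0.0115 to 0.187, above the threshold in 22 of 30 fits) and that of Myh7 by -1.26 to -0.70 (p from 0.0143 to 0.231, lowest without ADV 24). Pairs with an adjusted p under 0.05 fell to 6 in LD and 1 in ADV mice without the 2 farthest libraries, and to 1 in ADV mice with Spearman's rho. Pairs in ADV mice that turned sign were Myh1 with Myh3 (r = -0.28 without the 2 farthest libraries) and Myh8 with Myh3 (rho = 0.0029, and r = 0.012 with library size alone). The causes were not tested. Myh3 had the fewest reads of the members, 99.5 to 462.5 read pairs per library.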
